A study of Mus musculus with 10 samples.

Results

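The oligoadenylate synthetase family was described over 4 groups of mouse cell cultures through 6 member genes, Oas1a, Oas1g, Oas2, Oas3, Oasl1 and Oasl2. Every array probe whose platform symbol was one of these names was taken, which gave 15 of 45281 probes and 6 of 19057 named genes. Oas1g had 5 probes, Oasl1 and Oasl2 had 3 each, Oas3 had 2, and Oas1a and Oas2 had 1 each. The members were selected on differences already seen in these same intensities, between bilayer and monolayer and between the lines, so their values are given as a description, with no test.

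Oligoadenylate synthetases bind double-stranded RNA, a sign of viral infection, and join ATP into short chains of adenylate linked between the 2′ and 5′ positions. These chains act as a second messenger in the antiviral response. Interferon induces the family in most cell types through a transcription factor complex that contains STAT2 and IRF9. Oas1a, Oas1g, Oas2 and Oas3 encode synthetases that differ in how many synthetase units they carry. Oasl1 and Oasl2 encode synthetase-like proteins that also carry ubiquitin-like domains. In mice Oasl2 has kept synthetase activity, whereas Oasl1 has not and instead restrains translation of the interferon regulator Irf7.

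Messenger RNA was measured on 10 Illumina bead arrays from a pair of mouse lines. Bilayer adipocytes (3 arrays) were 3T3-L1 cells, an embryonic fibroblast line turned into fat-storing cells with IBMX, dexamethasone and insulin, kept for 24 h under a membrane that carried RAW 264.7 macrophages. Monolayer adipocytes (3 arrays) were the same differentiated cells grown alone. Bilayer macrophages (2 arrays) were RAW 264.7 cells, a macrophage line from mouse ascites, kept on a polycarbonate membrane with 0.4 µm pores above those adipocytes, and monolayer macrophages (2 arrays) were grown alone. Day 8 of differentiation was given for both adipocyte groups. The labels do not say whether monolayer dishes held an insert or the same volume of medium. Each sample was a pool of 5 dishes, and nothing in the labels says that pools came from separate cultures, so the p-values reflect variation among these pools alone, which may be technical.

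The upstream sequences of 5 members were available from RefSeq (mouse build GRCm38.p6), all on chromosome 5. They are shown because Oas1a, Oas1g and Oas3 share a motif arrangement that Oasl1 and Oasl2 lack in this stretch. In each window of 250 bases before the annotated start, a script searched both strands for GAAANNGAA, the core of elements bound by interferon regulatory factors, and for TTCNNNGAA, the palindrome bound by STAT dimers. Overlapping matches were kept. The last 100 bases before the start are printed 5′ to 3′ on the gene's strand, with the bases of the GAAANNGAA matches in capitals.
Oas1a (minus strand, chr5:120907526-120907625): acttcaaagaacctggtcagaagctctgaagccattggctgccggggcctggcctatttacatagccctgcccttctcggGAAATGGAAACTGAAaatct
Oas1g (minus strand, chr5:120887614-120887713): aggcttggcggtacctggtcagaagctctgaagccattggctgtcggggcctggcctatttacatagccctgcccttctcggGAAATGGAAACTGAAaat
Oas3 (minus strand, chr5:120777660-120777759): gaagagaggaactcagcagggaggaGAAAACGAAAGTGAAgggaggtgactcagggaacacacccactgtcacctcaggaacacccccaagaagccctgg
Oasl1 (plus strand, chr5:114923140-114923239): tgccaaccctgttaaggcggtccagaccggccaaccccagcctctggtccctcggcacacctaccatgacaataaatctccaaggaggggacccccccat
Oasl2 (plus strand, chr5:114896834-114896933): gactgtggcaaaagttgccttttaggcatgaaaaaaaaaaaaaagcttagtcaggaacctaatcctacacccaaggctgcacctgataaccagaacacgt

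GAAANNGAA was found in 3 of the 5 windows and in 7.13% of all 32851 mouse windows of this length. In Oas1a, Oas1g and Oas3 a pair of matches overlapped, with their first bases 6 apart, an arrangement held by 0.164% of all windows. Only the spacing held by these members was counted, so this share is a description and no test. The first base of the leading match lay at position -20 from the start in Oas1a, -18 in Oas1g and -75 in Oas3. TTCNNNGAA was found in the Oas1a window only, beginning at position -98, and in 7.02% of all windows. Neither motif was found in the windows of Oasl1 and Oasl2, which says only that these letters are not in those stretches. The Oas1a and Oas1g windows were identical at 212 of 256 aligned positions and shared an unbroken run of 56 bases. Oas1a and Oas1g are paralogs within a larger Oas1 group. Their transcripts and probe sequences were not compared here, and the probes may not tell the paralogs apart, so the Oas1a and Oas1g values are uncertain as to gene. Oas2 was not analysed here for sequence.

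The values are the authors' background-subtracted, normalized intensities in arbitrary units, in which a value can lie below 0. Noise was bounded at 10.9 units, below which 99% of the negative values lay in size, and 41.9% of probes exceeded it on each array. Log2 differences were taken between group means of log2(intensity + 16), which understates the change of dim probes, and their standard errors (SE) come from a limma fit to all 10 arrays. Levels of different probes cannot be set against each other. Across all probes, Pearson r was 0.993 to 0.997 within a group and 0.795 to 0.815 between the lines. The summed level of 9 measured adipocyte markers was 91235 to 96613 in bilayer and 93697 to 102213 in monolayer adipocytes, and 3414 to 4060 in bilayer and 4584 to 4613 in monolayer macrophages, where 7 and 6 of the 9 were above noise on no array. Nearly all of the macrophage sums came from Lpl alone, which averaged 3724 units in bilayer and 4569 in monolayer macrophages. The 9 macrophage markers summed to 282 to 349 in bilayer and 244 to 278 in monolayer adipocytes, where 6 of the 9, among them Laptm5, Adgre1 and Ptprc, were above noise on no array, while Cd14 averaged 315 units in bilayer and 260.1 in monolayer adipocytes. They summed to 71188 to 72962 in bilayer and 71528 to 71782 in monolayer macrophages. All 5 fibroblast and preadipocyte markers were above noise on every adipocyte array, at sums of 16330 to 17040 in bilayer and 16590 to 17179 in monolayer, and on no macrophage array. The part of these markers in the results was not tested. In bulk RNA, fewer cells of a type and less RNA per cell cannot be told apart.

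Oasl2, the synthetase-like gene that has kept enzyme activity in mice, was the member with the widest difference between bilayer and monolayer. In adipocytes its brightest probe read 207, 276 and 247 units in bilayer, against 46.2, 31.3 and 34.8 units in monolayer. The bilayer arrays were all far above the monolayer arrays and the groups did not overlap. The log2 difference was 2.28 (SE 0.15), and it stayed between 2.19 and 2.39 when any 1 adipocyte array was left out. In macrophages the same probe read 136 and 114 units in bilayer, against 226 and 198 units in monolayer. Here the order was the opposite, with both bilayer arrays below both monolayer arrays, a log2 difference of -0.69 (SE 0.18). The adipocyte difference minus the macrophage difference was 2.97 on the log2 scale (SE 0.23).

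Oasl2 also changed its order between the lines. In monolayer all 3 adipocyte arrays lay below both macrophage arrays, with a log2 difference of -2.10 (SE 0.16) between adipocytes and macrophages. In bilayer all 3 adipocyte arrays lay above both macrophage arrays, by 0.87 on the log2 scale. From the lowest, the order of the group means was thus monolayer adipocytes (37.5 ± 7.78 units, SD, n = 3), bilayer macrophages (125 ± 15.6, n = 2), monolayer macrophages (212 ± 19.6, n = 2) and bilayer adipocytes (243 ± 34.6, n = 3). Only the last pair in this order overlapped, since 1 bilayer adipocyte array, at 207, lay between the monolayer macrophage arrays. The other Oasl2 probes were dim. The second read 12.1, 1.19 and 23.6 units in bilayer and -0.217, -1.14 and 15.0 in monolayer adipocytes, and the third exceeded the noise bound on 1 of 10 arrays. On both of these probes the groups overlapped in each line, and averaging Oasl2 over its probes above noise lowered the adipocyte difference to 1.35.

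**Figure D1:**
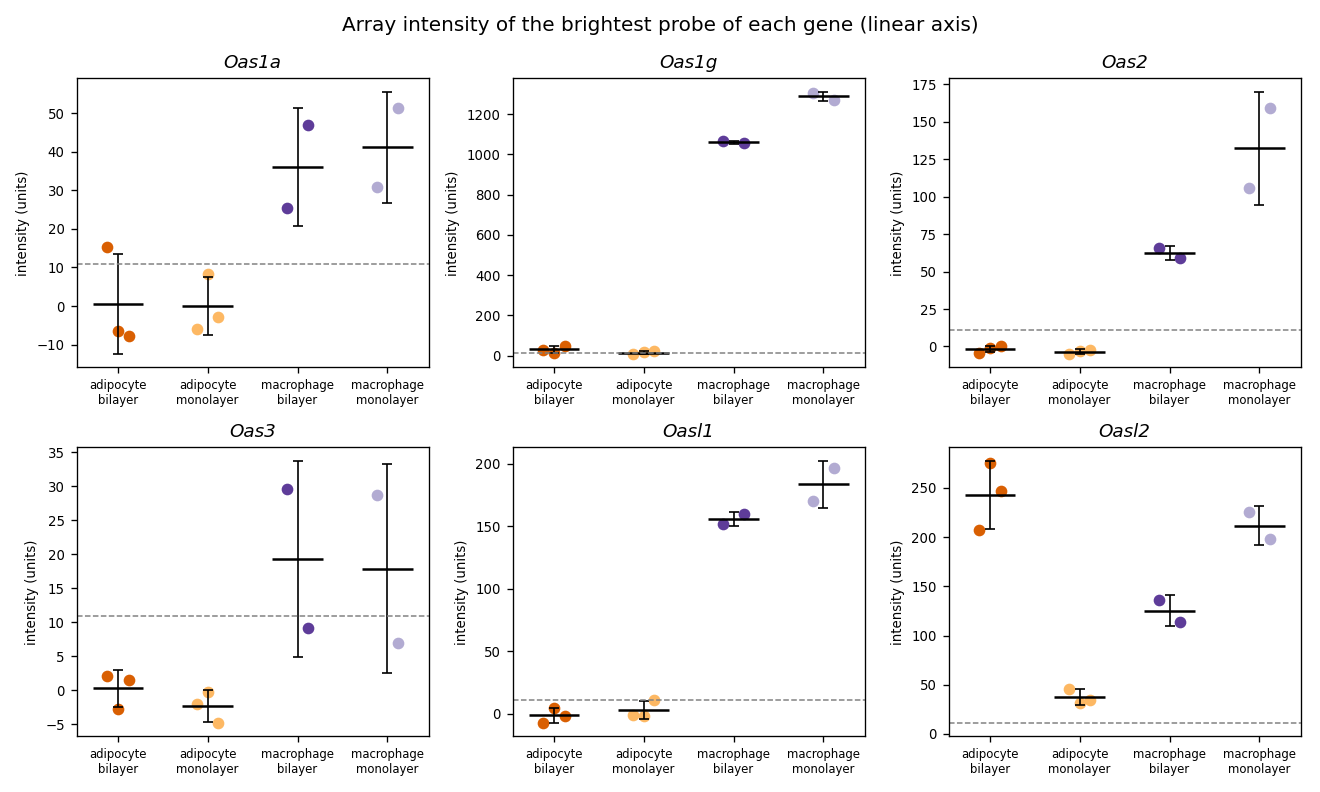
Intensity in arbitrary units, on a linear axis, of the brightest probe of each member on all 10 arrays, where points are arrays, bars are group means with SD and the dashed line is the noise bound of 10.9. Oasl2 is high in bilayer adipocytes (207 to 276) and low in monolayer adipocytes (31.3 to 46.2), whereas Oas1g, Oas2 and Oasl1 are high in macrophages and at 48.1 units or lower in adipocytes.

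Oas1g encodes a synthetase of the Oas1 group. In macrophages its brightest probe read 1066 and 1054 units in bilayer, against 1305 and 1271 units in monolayer. Both bilayer arrays were lower, without overlap, and the log2 difference was small, -0.28 (SE 0.29). That SE pools the scatter of the adipocyte arrays, which sit near noise, and so exceeds the spread among the 4 macrophage arrays. The second probe read 599.5 and 639.5 units in bilayer against 660.2 and 705 in monolayer macrophages, again without overlap. The third read 9.13 and 10.7 units in bilayer against 26.9 and 21.9 in monolayer macrophages, and it exceeded the noise bound on the monolayer arrays alone. The remaining 2 Oas1g probes were each above noise on 1 of 10 arrays.

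In adipocytes the brightest Oas1g probe read 28.9, 14.0 and 48.1 units in bilayer, against 6.39, 17.0 and 21.6 units in monolayer. The bilayer mean was higher, by 0.55 on the log2 scale (SE 0.22), but the groups overlapped and the difference ranged from 0.28 to 0.83 as each adipocyte array was left out. None of the other 4 Oas1g probes was above noise on 2 adipocyte arrays. Set against macrophages, all adipocyte arrays were far lower, with a difference on the log2(intensity + 16) scale of -5.43 (SE 0.26) in monolayer and -4.61 in bilayer. No fold is given, because 1 of the 3 monolayer adipocyte arrays was within noise and the size depends on the offset of 16.

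Oas2 encodes a larger synthetase with more synthetase units than the Oas1 proteins. In macrophages its probe read 65.6 and 58.8 units in bilayer, against 106 and 159 units in monolayer. Both bilayer arrays were lower, without overlap, and the log2 difference of -0.90 (SE 0.25) was the lowest of any member probe in that line. Its size rested in part on the monolayer array at 159, and it ranged from -1.16 to -0.64 as each macrophage array was left out. In adipocytes none of the 6 arrays exceeded the noise bound, with readings of -4.10, -1.11 and 0.202 units in bilayer and -5.20, -2.88 and -2.19 units in monolayer. Oas2 was therefore at least 5.43-fold lower in monolayer adipocytes than in monolayer macrophages, and at least 2.91-fold lower in bilayer adipocytes than in bilayer macrophages, where each bound sets the adipocyte arrays at the higher of 10.9 units and their own value.

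Oasl1, the synthetase-like gene without enzyme activity, read 152 and 160 units in bilayer macrophages on its brightest probe, against 170.1 and 197 units in monolayer macrophages. The bilayer arrays were lower without overlap, by a log2 difference of -0.21 (SE 0.28). The second probe read 87.2 and 51.2 units in bilayer against 90.9 and 90.1 units in monolayer macrophages, and the third read 2.34 and 5.01 units in bilayer against 13.4 and 17.5 units in monolayer macrophages. All 3 Oasl1 probes were thus lower in bilayer macrophages, the third passing the noise bound on the monolayer arrays alone. In adipocytes the brightest probe exceeded the bound on 1 of 6 arrays, a monolayer array at 10.98 units, and its groups overlapped. Oasl1 was at least 6.38-fold lower in bilayer adipocytes than in bilayer macrophages.

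Oas1a, a catalytically active synthetase of the Oas1 group, read 25.3 and 46.9 units in bilayer macrophages, against 31.0 and 51.3 units in monolayer macrophages. The groups overlapped, and the log2 difference of -0.14 (SE 0.38) turned from -0.45 to 0.16 depending on which array was left out. In adipocytes 1 of 6 arrays was above noise, a bilayer array at 15.4 units. Oas3, the largest synthetase of the family, read 29.6 and 9.15 units in bilayer macrophages, against 28.8 and 6.99 units in monolayer macrophages. It was above noise on 1 of 2 arrays in each macrophage group, with overlapping groups and a log2 difference of 0.08 (SE 0.37), and on no adipocyte array. The second Oas3 probe was above noise on no array. In monolayer, Oas1a was at least 2.09-fold lower in adipocytes than in macrophages.

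**Figure D2:**
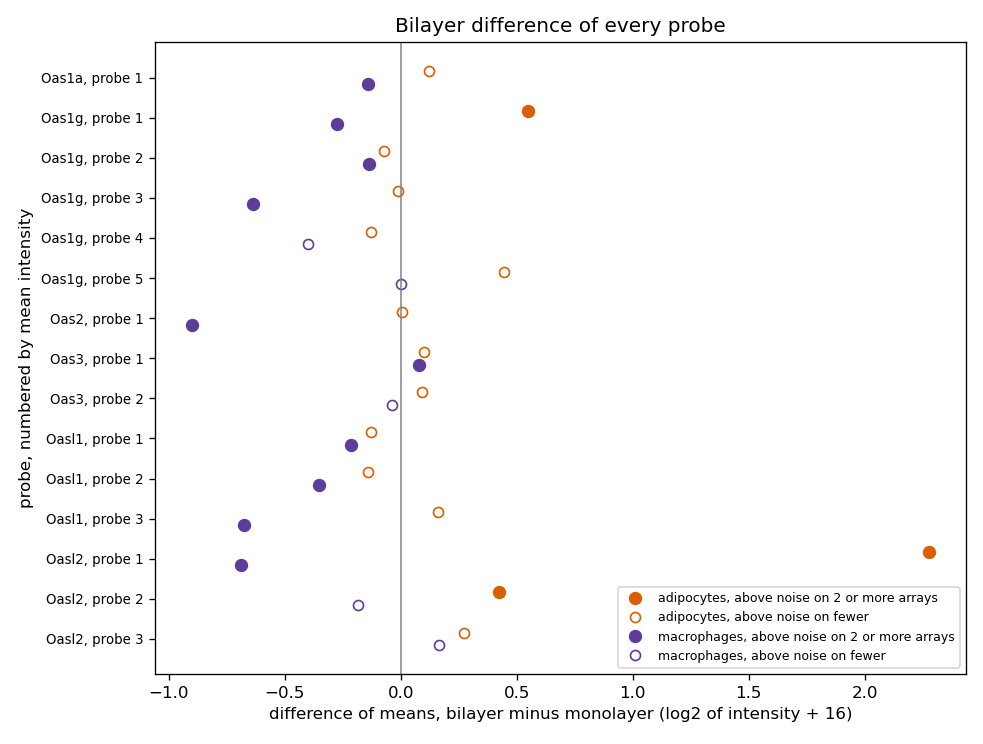
Difference of group means, bilayer minus monolayer, on the log2(intensity + 16) scale for each of the 15 probes, numbered within a gene by mean intensity. Filled points are probes above noise on 2 or more arrays of that line, and the adipocyte point of Oasl2 probe 1 at 2.28 stands apart from all others.

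Over the family, 2 of 6 members (3 of 15 probes) passed the noise filter in adipocytes and 6 of 6 members (10 of 15 probes) in macrophages. On the brightest probes, 1 member was above, 0 below and 5 overlapped in bilayer against monolayer adipocytes, where 13.9% of all tested genes were above and 14.8% below without overlap. In macrophages 0 members were above, 4 below and 2 overlapped, where 22.4% of all tested genes were above and 21.2% below. Since the members were selected with these contrasts known, nothing is read from those counts. The median log2 difference of the 6 members was 0.11 in adipocytes, against -0.01 over all tested genes, and -0.25 in macrophages, against 0.00 over all tested genes. The adipocyte median covers 4 members that lay at or near noise there.

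After subtracting each line's mean, the members were compared across the 10 arrays. The highest Pearson r among 15 pairs of members was 0.53, between Oas1g and Oasl2, and the other 14 pairs lay between -0.42 and 0.32. Ranked over 12318 genes, the genes most like Oasl2 were C4a (r = 0.990), a complement component, and Isg15 (r = 0.986), an interferon-induced ubiquitin-like modifier. C4a read 985 ± 22.7 units in bilayer and 416 ± 15.97 in monolayer adipocytes (SD, n = 3 each), and 8.37 ± 3.87 in bilayer and 15.4 ± 3.10 in monolayer macrophages (SD, n = 2 each), with the macrophage values near the noise bound. The highest r was 0.949 for Oas1g (Abcf1), 0.954 for Oas2 (Fscn1), 0.965 for Oas3 (Prdm1), 0.927 for Oasl1 (4933413J09Rik) and 0.934 for Oas1a (Morc2b). The second genes were Mogs, Tal1, Ddo, Cubn and Ankrd49, at r of 0.944, 0.953, 0.940, 0.925 and 0.927 in the same order. These correlations are descriptions that share arrays and, for dim probes, noise. Only each line's mean was subtracted, so r still holds the bilayer differences on which the members were selected. For Oas3, Oasl1 and Oas1a the likest gene averaged at most 17.2 units in any group. Oas2 was above noise in macrophages alone, where its likest gene Fscn1 averaged -0.554 units in bilayer and 17.5 in monolayer.

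The rest of the pathway was read from a list of 92 other genes, 87 of them on the array, ordered by role. The list was chosen with earlier results of these data known, so the counts and p-values of its genes are no independent test. In adipocytes, 59 could be tested, of which 28 were higher and 3 lower in bilayer by limma with Benjamini-Hochberg adjustment, against 5.63% and 5.17% of all tested genes. Their median log2 difference was 0.36, against -0.01 over all genes. In macrophages, 60 could be tested and 0 passed by limma, with 9 at an unadjusted p under 0.05, as had 10.9% of all tested genes. Over all tested macrophage genes 0.494% were higher and 0.174% lower, and the median of the list was -0.07. When only the macrophage arrays were fitted, 2 passed, both lower in bilayer and named after their values were seen, against 0.901% higher and 0.6% lower of all genes in that fit. They were Bst2, a membrane protein that tethers virus particles (log2 difference -0.48, limma adjusted p = 0.00775), and Ifngr2, a chain of the interferon gamma receptor (log2 difference -0.48, limma adjusted p = 0.0134).

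**Figure D3:**
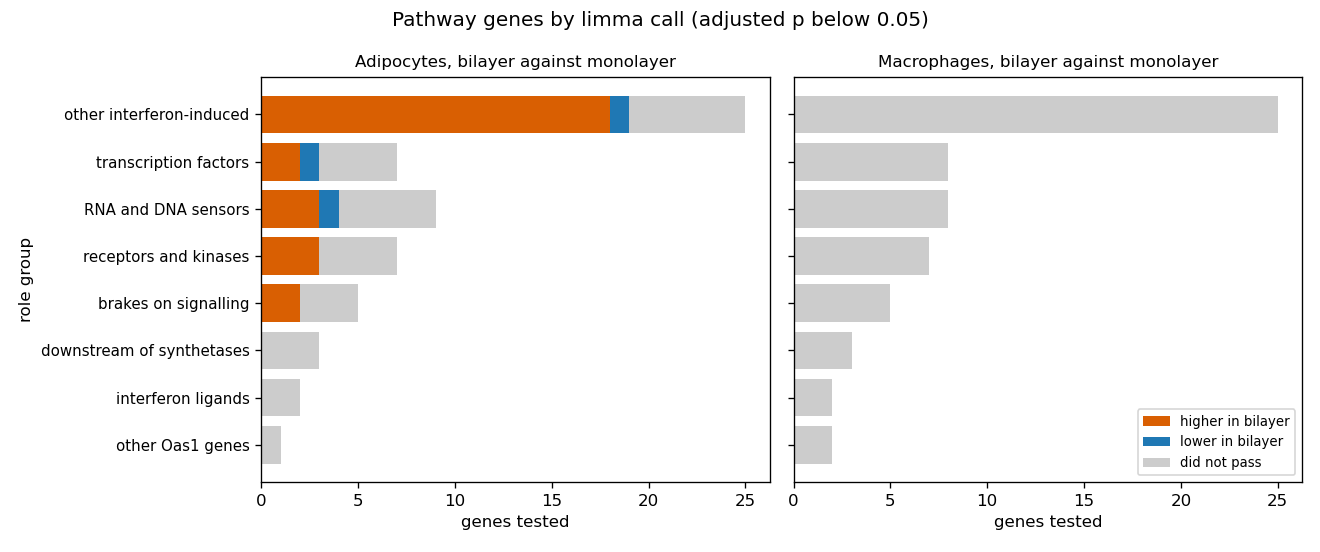
Number of tested pathway genes in each role group that were higher in bilayer, lower in bilayer or did not pass, in adipocytes (left) and macrophages (right). The adipocyte calls are mostly other interferon-induced genes (18 higher, 1 lower of 25), and the macrophage panel has no call.

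Closest to the members, the only other Oas1 gene tested in adipocytes was Oas1c, which did not pass (log2 difference 0.40, SE 0.28). The list's 3 measured genes that act downstream of the synthetases were tested in each line and none passed in bilayer against monolayer. They were Abce1, an ATP-binding protein of ribosome recycling, and Pde12 and Akap7, phosphodiesterases that degrade the adenylate chains. Pde12 had a log2 difference of -0.24 (SE 0.12) and Akap7 one of 0.03 (SE 0.10) in adipocytes. Between the lines in monolayer, Akap7 was higher in adipocytes (411 ± 47.0 units, SD, n = 3) than in macrophages (218 ± 5.49, n = 2), and Pde12 was lower (152 ± 19.4 in adipocytes, 311 ± 1.54 in macrophages), each by limma (adjusted p = 3.97e-06 and 1.00e-05). The Akap7 call was lost when its probes were averaged (adjusted p = 0.205).

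Interferons, the ligands that induce the family, were mostly too dim to test. Of 14 interferon genes on the array, 2 could be tested in each line and none passed in bilayer against monolayer. Among receptors and kinases, 3 of 7 rose in bilayer adipocytes and none fell. Ifnar2, a chain of the type I interferon receptor, read 151 ± 15.0 units in bilayer and 96.6 ± 10.97 in monolayer adipocytes (SD, n = 3 each; limma adjusted p = 0.00398). Jak2 and Jak1, kinases that act at cytokine receptors, rose by 0.63 (SE 0.11) and 0.54 (SE 0.12) on the log2 scale, the Jak1 call being lost with no filter on dim probes (limma adjusted p = 0.0546). Of the genes of that complex, Irf9 read 374 ± 18.1 units in bilayer and 180.4 ± 29.2 in monolayer adipocytes (limma adjusted p = 1.06e-05), and Stat2 read 125 ± 18.2 in bilayer and 60.9 ± 7.59 in monolayer adipocytes (limma adjusted p = 0.000869). Irf5, an interferon regulatory factor prominent in macrophages, fell to 11.95 ± 3.54 units in bilayer adipocytes, close to noise, against 43.2 ± 4.31 in monolayer adipocytes (limma adjusted p = 6.32e-06).

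Among the other sensors of foreign RNA and DNA, 3 of 9 rose and 1 fell in bilayer adipocytes. Dhx58, a regulator of RIG-I-like sensing, read 170.5 ± 16.5 units in bilayer and 62.5 ± 21.3 in monolayer adipocytes, a log2 difference of 1.29 (SE 0.17). Adar, which edits double-stranded RNA, rose by 0.81 (SE 0.13). Ddx58, the gene of RIG-I, rose by 0.46 (SE 0.14, limma adjusted p = 0.0467), a call lost without any of 5 of the 6 adipocyte arrays (all but bilayer replicate 3), with an adjusted p of up to 0.181, and also lost with an offset of 4, no filter on dim probes, no variance trend or the replicate block (adjusted p = 0.0706, 0.111, 0.0685 and 0.0538). Cgas, the sensor of cytosolic DNA, fell by 0.42 (SE 0.09), a call lost when its probes were averaged (adjusted p = 0.132). Of the other interferon-induced genes, 18 of 25 rose and 1, Irgm1, fell (log2 difference -0.24, named after its value was seen). Isg15 read 312 ± 28.7 units in bilayer and 129.5 ± 10.0 in monolayer adipocytes, Ifitm3, a membrane protein that limits viral entry, 5855 ± 736 in bilayer and 3130.4 ± 135 in monolayer. Lgals3bp, a secreted glycoprotein, and Trim25, a ubiquitin ligase of RIG-I signalling, rose by 0.45 (SE 0.06) and 0.52 (SE 0.07). Of the brakes on signalling, 2 of 5 rose, Socs3 by 0.85 (SE 0.11) and Usp18 by 0.59 (SE 0.12), the second lost when probes were averaged (adjusted p = 0.0732).

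The difference between the lines' responses, as wide as 2.97 in Oasl2, was tested in 63 pathway genes, of which 14 had a higher and 1 a lower response in adipocytes by limma, against 1.51% and 1.05% of all tested genes. Mx2, an interferon-induced dynamin-like antiviral protein, had a difference of 1.93 (SE 0.30), Isg15 of 1.53 (SE 0.18), Ifitm3 of 0.90 (SE 0.13) and Lgals3bp of 0.74 (SE 0.09), with limma adjusted p of 0.00375, 0.000687, 0.00194 and 0.00083. These 4 passed without any 1 array, at an adjusted p of up to 0.0298, though Ifitm3 was lost with no filter or no variance trend (adjusted p of up to 0.0615). Mx2 was dim outside bilayer adipocytes, where it averaged 66.2 units. It averaged 12.8 units in monolayer adipocytes, 14.4 in bilayer and 24.6 in monolayer macrophages, not far above the noise bound of 10.9. The count fell to between 5 and 6 without any 1 of the 4 macrophage arrays. Usp18, Adar and Irf5 did not pass without any of those 4 arrays (adjusted p up to 0.0960, 0.0782 and 0.109), Irf9 without bilayer macrophage replicate 1 (0.0546), and Socs3, Stat2 and Dhx58 without 8, 9 and 8 of the 10 arrays in turn (up to 0.187, 0.167 and 0.177). None of these 7 passed without the variance trend, or when dim probes were kept. With probes averaged, Usp18 and Adar did not pass (adjusted p = 0.218 and 0.0935), nor did Irf5 with an offset of 64 (0.186), nor Socs3, Stat2 and Dhx58 with an offset of 4 (0.0697, 0.0636 and 0.0907), nor Socs3 and Stat2 with the replicate block (0.0778 and 0.0680).

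**Figure D4:**
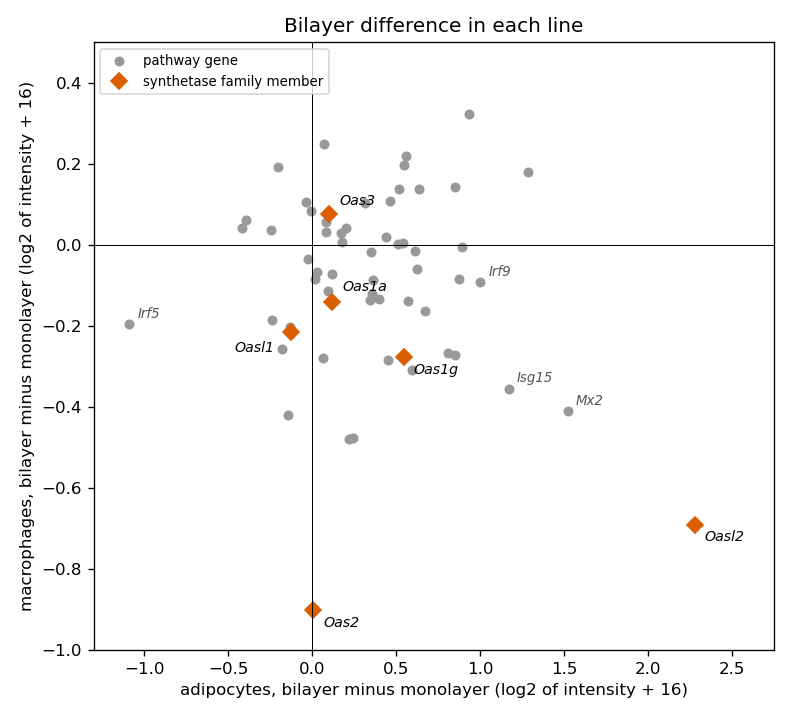
Difference of means, bilayer minus monolayer, on the log2(intensity + 16) scale in adipocytes (x axis) and macrophages (y axis), for the brightest probe of each member (diamonds) and 56 pathway genes tested in both lines (grey points). Oasl2 lies far right and low (2.28 and -0.69), on the same side as Mx2 and Isg15, and Oas1a, Oas2, Oas3 and Oasl1 are at or near noise on the x axis.

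Between the lines grown alone, 13 of 63 pathway genes were higher and 37 lower in adipocytes than in macrophages by limma, against 33% and 32.8% of all tested genes. Irf8, a macrophage transcription factor, was above noise in macrophages (1373 ± 70.7 units, SD, n = 2) and averaged 3.29 ± 2.67 units in adipocytes (n = 3). Ifngr1, a chain of the interferon gamma receptor, was higher in adipocytes, at 981 ± 30.7 units against 245 ± 18.5 units in macrophages. Oas1c was lower in adipocytes, at 9.83 ± 7.21 units against 27.9 ± 10.7 units in macrophages, with a limma adjusted p of 0.0366 that rose to 0.273 without monolayer macrophage replicate 1 and was also lost without monolayer adipocyte replicate 1 or 2. How the lines were normalized against each other is not given in the sources used here. The deposited values of all 10 arrays had nearly the same distribution, with medians of 5.08 to 5.10 and upper quartiles of 83.9 to 84.2 units. Differences between the lines are therefore relative to that common distribution.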

How the data were processed

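Values were the deposited series-matrix intensities, which the authors had background-subtracted and normalized (method not given in the sources used here). The submitters' processing notes list GenomeStudio 2011.1 without saying what it did. Another 20 value columns on 2 slides could not be tied to samples by name and were not used, so the slide entered no test. Probe symbols came from the platform annotation, with 1 symbol required.

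Intensities below 0 were set to 0 and log2(intensity + 16) was fitted with limma 3.58.1 (lmFit, eBayes with a variance trend, two-sided) in R 4.3.3 over 10 arrays in 4 groups, so each gene's spread is pooled over both lines. A gene was tested where its probe exceeded the noise bound on at least 2 arrays of the lines compared, with the probe of highest mean, and adjusted p is Benjamini-Hochberg over all genes tested, called at 0.05. The number of arrays limits the precision. The members, the pathway list, the markers and the tests were chosen with earlier results of these data known.

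Named genes were every member, up to 4 called pathway genes with the smallest p per role and bilayer comparison, 2 per role between lines, and the 2 genes most correlated with each member. The fit was tested on simulated data. Alternatives were an offset of 4 or 64, no filter, no variance trend, probes averaged, only the arrays of 1 line, a replicate block and each array left out.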

Additional observations from a re-analysis of the deposited data

Results flagged for a closer look

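Oasl2 moved in opposite directions in the lines: every bilayer adipocyte array was above, and every bilayer macrophage array below, its monolayer arrays, with an adipocyte minus macrophage difference of 2.97 on the log2 scale. That difference was not tested, since the gene was selected with these arrays known.

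In 11 pathway genes named by rule the limma test of the difference between the lines' responses passed. The adipocyte minus macrophage difference in log2 units was 1.07 for Adar (adjusted p = 0.0111), 1.11 for Dhx58 (0.0471), 0.90 for Ifitm3 (0.00194), -0.89 for Irf5 (0.0168) and 1.09 for Irf9 (0.00538). It was 1.53 for Isg15 (0.000687), 0.74 for Lgals3bp (0.00083), 1.93 for Mx2 (0.00375), 0.71 for Socs3 (0.0427), 0.96 for Stat2 (0.0395) and 0.90 for Usp18 (0.0187). Isg15, Lgals3bp, Ifitm3 and Mx2 passed without any 1 array, and the other 7 did not pass without at least 1 array. Outside bilayer adipocytes Mx2 was dim, at group means of 24.6 units or less. The pathway list, too, was chosen with earlier results of these data known.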

How the results depend on the processing

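The member differences were stable in direction on the brightest probes for Oasl2 in both lines under every alternative tried, but its size in adipocytes was 2.58 with an offset of 4, 1.59 with an offset of 64 and 1.35 with probes averaged. Of 144 member values recomputed, 11 moved by more than the spread between replicates. The adipocyte pathway count of 31 calls was 19 with no filter on dim probes. The macrophage count of 0 was 2 with only the arrays of the line. The count of response differences, 15, was 4 with no filter, 3 with no variance trend and between 5 and 13 with each array left out. Calls of named genes numbered 41, of which 26 passed under every alternative, and 80 of 524 recomputed calls missed the threshold with 0 in the opposite direction. Same-numbered adipocyte replicates deviated together only slightly (correlation 0.013 to 0.044, against -0.049 to 0.004 for differently numbered pairs). In macrophages, with 2 arrays per group, the correlations are fixed to be equal in size (-0.018 for same-numbered and 0.018 for other pairs) and cannot show pairing well. With a replicate block the counts were 28 in adipocytes, 0 in macrophages and 12 for the response difference. Values under 10.9 units are not told apart from noise.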
